A study of Mus musculus with 2 samples.

Results

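The simple epithelial and embryonic keratins Krt4, Krt7, Krt8, Krt13, Krt18, Krt19, Krt20 and Krt23 were examined in mouse epidermis with and without induced SOX11. Members were taken by gene name among the non-control probes of the array, which gave 10 probes for 8 genes out of 55681 probes under 34821 names. Krt8 and Krt13 had 2 probes each, and the other genes had 1. Each probe was a single spot on each array, and no member spot was saturated or marked as an outlier.

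The study asked how gene expression in postnatal epidermis responds to SOX11, a DNA-binding protein of the embryonic epidermis. SOX11-induced pups carried K14-rtTA, which makes a doxycycline-dependent activator, and TRE-Sox11-FLAG, which the activator switches on. Control littermates carried K14-rtTA alone. All 4 pups were FVB/N, were labelled as postnatal day 4.5, and had received doxycycline for 12 h, so the controls share the activator and the drug. The keratin 14 promoter limits induction to keratin 14 positive cells, whereas RNA came from the whole epidermal sheet, which the methods describe as peeled from dorsal skin after dispase. There were 2 littermate pairs, each hybridised to its own 2-colour array, with the control in Cy3 and the SOX11-induced pup in Cy5. The dyes were not swapped in the labels, so dye and genotype cannot be told apart within a probe. Both arrays lay on 1 slide with 1 scan time. Across all probes, 37.5% to 42.6% of spots were well above background in a channel.

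Keratins are the intermediate filament proteins of epithelial cells. A type I and a type II keratin must pair to form a filament. Krt8 (type II) and Krt18 (type I) are the pair of simple, single-layered epithelia and are the keratins of the ectoderm before it stratifies. Krt7 (type II) and Krt19 (type I) accompany them in ducts and glands, Krt4 (type II) and Krt13 (type I) are the pair of internal stratified linings such as oral mucosa and oesophagus, and Krt20 (type I) marks gut epithelium and Merkel cells. Krt23 is a less studied type I keratin. In postnatal epidermis the main keratins are instead Krt5 and Krt14 in the basal layer and Krt1 and Krt10 above it.

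Whether a transcript was seen at all came first. A probe counted as above background in a channel when the scanner software marked it as well above background there. Krt7, Krt18, Krt20, Krt23, 1 probe of Krt8 and 1 probe of Krt13 were above background in all 4 pups. Krt4 was above background in none, with spots of 40.1 and 42.0 in the control channel over local backgrounds of 21 and 23. Krt19 was above background in 1 channel, that of the SOX11-induced pup of pair 2. The tissue label was met by Krt14, which was bright in all 4 channels (normalized log2 levels between 15.32 and 16.07).

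The probes of Krt13 gave opposite answers on detection, and their sequences are shown for that reason, with the Krt18 probe beside them because the report turns on it. All are in lower case, as no stretch is singled out. Positions are on mm9 as the array files give them. Krt13 probe 1 lies at chr11:99980412-99980471 and Krt13 probe 2 at chr11:99982471-99982530, both on the reverse strand. The Krt18 probe lies at chr15:101862341-101862400 on the forward strand.
Krt13 probe 1: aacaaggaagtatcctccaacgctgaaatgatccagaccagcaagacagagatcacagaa
Krt13 probe 2: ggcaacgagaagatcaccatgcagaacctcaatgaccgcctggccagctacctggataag
Krt18 probe: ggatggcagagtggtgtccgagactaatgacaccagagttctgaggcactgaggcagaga
Krt13 probe 1 was above background in 0 of 4 channels, with spot brightness of 47.3 and 48.4 in the controls. Krt13 probe 2 had 2587 and 4882 in the same channels. Both probes carry the name and accession of Krt13, and it was not tested here which transcripts bind each of them. A level of Krt13 therefore rests on probe 2 alone.

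Krt18, the type I keratin of simple epithelia, had the widest separation of the pairs among the members. Its normalized log2 level was 7.20 in the control and 8.83 in the SOX11-induced pup of pair 1, and 9.22 in the control and 9.10 in the SOX11-induced pup of pair 2. The log2 ratio of SOX11-induced over control was thus 1.63 in pair 1 and -0.12 in pair 2. The control pup of pair 1 stood low, and the other 3 pups lay close together. The mean ratio of 0.75 was smaller than its SD of 1.24 (n = 2), with a 95% interval of 0.03 to 1.48 and an adjusted p of 0.223 (limma). The pairs differed at Krt18 by 1.75 on the log2 scale, a gap reached by 179 (0.822%) of the 21782 probes counted as above background, those seen in either channel of each array.

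Krt8, the type II partner of Krt18, had the same lowest pup at its better measured probe, with smaller differences. Probe 1 (chr15:101827138-101827197, reverse strand) had log2 levels of 6.04 in the control and 6.80 in the SOX11-induced pup of pair 1, and of 6.57 and 6.62 in pair 2. Its log2 ratios were 0.77 and 0.05, and their mean was 0.41 ± 0.508 (SD, n = 2), which did not pass (limma, adjusted p = 0.256). The control of pair 1 was the lowest of the 4 pups and the SOX11-induced pup of pair 1 the highest. Probe 2 (chr15:101828827-101828886, reverse strand) had log2 levels of 5.44 and 5.86 in pair 1 and of 6.15 and 5.87 in pair 2. The control of pair 1 was not above background at this probe. Its mean log2 ratio of 0.08 ± 0.497 (adjusted p = 0.855, limma) turned to -0.020 with median in place of mean spot brightness and to -0.018 in the series table.

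Krt7, a type II keratin of ducts and glands, lay at chr15:101253718-101253777 on the forward strand. Its log2 levels were 7.99 in the control and 8.79 in the SOX11-induced pup of pair 1, and 8.88 and 8.97 in pair 2. The log2 ratios of 0.79 and 0.09 averaged 0.44 ± 0.497 (SD, n = 2), with a 95% interval of 0.02 to 0.87 and no pass (limma, adjusted p = 0.22). The control of pair 1 was the lowest pup here too, and the remaining 3 lay within a narrow range.

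Among the keratins of internal stratified linings, Krt13 probe 2 had log2 levels of 11.98 and 12.45 in pair 1 and of 12.76 and 12.37 in pair 2. Its log2 ratios were 0.47 and -0.39, so the pairs pointed opposite ways around a mean of 0.04 ± 0.608 (SD, n = 2; limma, adjusted p = 0.934). The lowest pup was the control of pair 1 and the highest the control of pair 2. For its partner Krt4 (chr15:101750158-101750736, reverse strand), no fold is given, since no channel was above background.

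The type I keratins Krt20 and Krt23 differed little among the 4 pups. Krt20 (chr11:99289776-99289835, reverse strand) had log2 levels of 6.05, 6.10, 6.09 and 6.26 in the control and SOX11-induced pup of pair 1 and then of pair 2. Its mean log2 ratio was 0.11 ± 0.0894 (SD, n = 2), with a 95% interval of -0.23 to 0.45. Krt23 (chr11:99339393-99339452, reverse strand) had log2 levels of 14.94, 15.18, 15.11 and 15.15 in the same order. Its mean log2 ratio was 0.14 ± 0.142 with a 95% interval of -0.21 to 0.48. Both were positive in both pairs and neither passed the test (adjusted p = 0.717 and 0.654, limma). Krt19 (chr11:100002392-100002451, reverse strand), the type I keratin of ducts and of the hair follicle, had log2 ratios of -0.09 and -0.20 at background, and no fold is given.

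**Figure D1:**
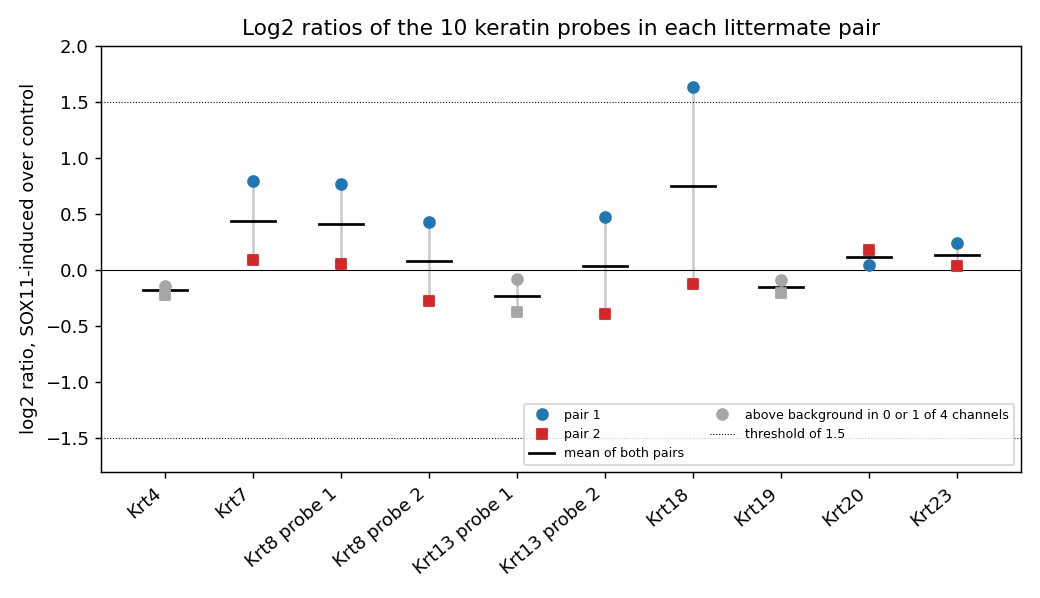
Log2 ratio of SOX11-induced over control for the 10 keratin probes (horizontal axis), with a circle for pair 1, a square for pair 2 and a bar for their mean. Grey marks probes above background in 0 or 1 of 4 channels, and dotted lines mark a log2 ratio of 1.5. Krt18 reaches 1.63 in pair 1 and -0.12 in pair 2, and Krt20 and Krt23 stay near 0 in both.

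A probe was called when its adjusted p from limma was below 0.05 and its mean log2 ratio lay beyond 1.5 in either direction. This held for 0 of the 10 member probes and for 0.453% of the 55676 probes tested, of which 204 were higher (0.366%) and 48 lower (0.0862%). With the adjusted p alone, 0 of 10 member probes passed against 4.39% of all probes (2.99% higher and 1.41% lower). Without adjustment, Krt7 and Krt18 passed the same threshold, 2 of 10 against 21.1% of all probes. Among the 21782 probes above background, 7 of them members, the shares were 1.16% called, 9.99% with the adjusted p alone and 31.2% unadjusted. The members' counts were thus near or below the background. Of the 10 probes, 4 were higher in both pairs and 3 lower in both, and the 3 lower ones (Krt4, Krt13 probe 1 and Krt19) were above background in 0 or 1 channels. The median log2 ratio of the 10 probes was 0.33 in pair 1 and -0.16 in pair 2, beside 0.01 in each pair for all probes. Over the 7 probes above background it was 0.47 in pair 1 and 0.04 in pair 2, beside 0.04 and 0.03 for all probes above background.

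Since only 2 arrays were available, the number of arrays limits the precision. The intervals rest on variances that limma shares across probes, and an exact sign-flip test of 2 pairs cannot go below p = 0.5. All 10 of the 95% intervals ended below 1.5, the highest at 1.48 for Krt18. The Krt18 interval leaves out both of its measured ratios, 1.63 in pair 1 and -0.12 in pair 2. It therefore does not bound the change at Krt18. With median centring in place of loess, 5 member probes passed an adjusted p of 0.05, as did 33.2% of all probes, and the median of all probes above background moved from 0.04 to 0.51. Those 5 were Krt18 (1.30), Krt7 (0.99), Krt23 (0.93), Krt13 probe 2 (0.73) and Krt8 probe 1 (0.71). Relative to the moved median they stood at 0.79, 0.49, 0.43, 0.22 and 0.21.

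Pups of the same genotype were then compared across the pairs, to see which pups set the gap. This comparison runs between arrays and depends on a scaling between them, and with 1 pup of each genotype per pair it carries no test. For Krt18, the control of pair 2 was higher than the control of pair 1 by 2.03 on the log2 scale, whereas the SOX11-induced pups differed by 0.27. In linear terms this was 4.07-fold between controls and 1.21-fold between SOX11-induced pups. A control difference at least as large was found at 214 of 21782 probes above background (0.982%). Krt7 differed by 0.88 between controls and 0.18 between SOX11-induced pups. Krt13 probe 2 differed by 0.77 and -0.09, and the Krt8 probes by 0.53 and -0.19 at probe 1 and by 0.71 and 0.01 at probe 2. For Krt20 (0.03) and Krt23 (0.17) the controls were closer to each other. The control of pair 2 was higher than that of pair 1 at 7 of the 7 member probes above background, as it was at 10012 of 21782 such probes overall. The 7 include both probes of Krt8, of which probe 2 was not above background in the control of pair 1. They also include Krt20, whose control difference turned to -0.08 in the processed signals. The gap between the pairs at Krt18, Krt7, Krt8 and Krt13 probe 2 therefore lay mainly between the control pups. It was also present without any scaling between arrays, where the control difference was 2.27 at Krt18 and 1.13 at Krt7, and in the processed signals, where it was 2.22 and 0.86. At Krt8 probe 2, where the control of pair 1 was not above background, the processed signals gave 2.47.

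**Figure D2:**
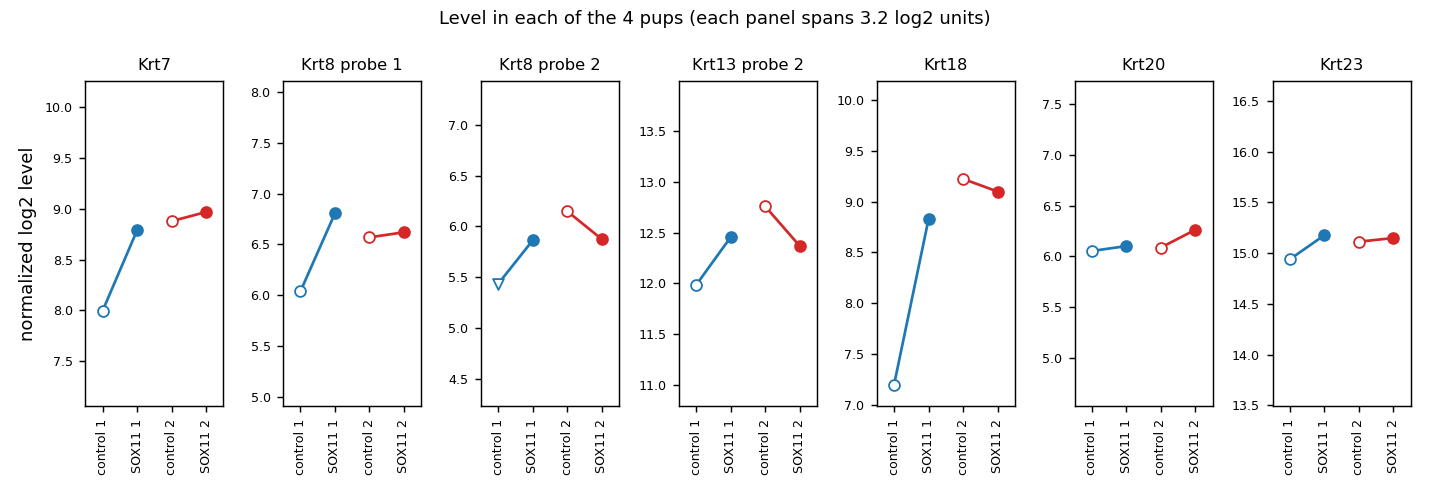
Normalized log2 level of the 7 member probes above background in at least 3 of 4 channels, in each of the 4 pups. Open symbols are controls and filled symbols SOX11-induced pups, blue is pair 1 and red is pair 2, lines join littermates, and the triangle marks a spot not above background. Each panel spans 3.2 log2 units. The control of pair 1 is the lowest pup at all 7 probes, by little at Krt20 and Krt23, and was not above background at Krt8 probe 2. Levels of different probes are not comparable with each other.

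The other keratin groups showed where this pattern was shared. In the 19 hair shaft keratin probes above background, such as those of Krt31 and Krt86, the control of pair 2 was higher than that of pair 1 in all 19, with a median difference of 2.92 (from 0.61 to 3.48). The SOX11-induced pups differed there by a median of 0.55. The lowest hair shaft control difference, 0.61, was at 1 probe of Krt85, and the other Krt85 probes had 2.07 and 3.04. The 9 inner root sheath probes, for the keratins of the layer that guides the growing hair, had a median control difference of 2.24 (from 0.59 to 2.72) and a median of 0.18 between SOX11-induced pups. The 59 probes of keratin-associated proteins, which bind hair keratins, had 3.31 between controls and 0.83 between SOX11-induced pups. The control difference of Krt18 thus lay within the range of the inner root sheath probes. The lower end of that range, 0.59, was the probe of Krt74, whose control of pair 1 was not above background. The control differences of Krt7, Krt13 probe 2 and the Krt8 probes were smaller than those of all other inner root sheath probes. In contrast, the 9 basal and suprabasal probes had a median control difference of -0.39 (from -1.27 to 0.23). The upper end, 0.23, was a Krt2 probe that was above background in neither control, and the next highest was -0.16 at Krt5. The 5 wound-activated probes spread from -1.84 to 1.47, and the probes of Krt6b disagreed, at -1.84 and 1.07. Over all probes above background the median was -0.03.

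Hair keratins therefore differed between the control pups in the same direction as Krt18, Krt7, Krt8 and Krt13 probe 2, and their part in these values was not tested. In bulk epidermis, fewer cells of a type and less RNA per cell cannot be told apart. The pairs also differed in sex-linked genes. Xist was above background in both channels of pair 1 and in none of pair 2, and Ddx3y and Eif2s3y the reverse, so that sex and pair cannot be told apart.

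**Figure D3:**
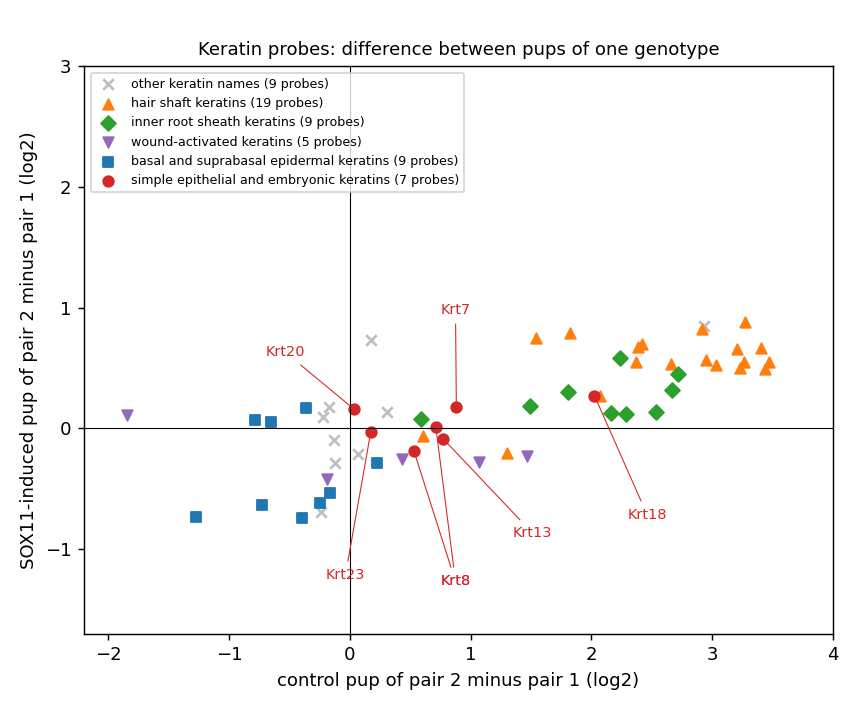
Difference between the control pups (horizontal axis, pair 2 minus pair 1, log2) against the difference between the SOX11-induced pups (vertical axis, pair 2 minus pair 1, log2), for all keratin probes above background, 1 point per probe. Simple epithelial and embryonic keratins are red circles with their names. Krt18 lies at 2.03 and 0.27 among the inner root sheath probes, and Krt20 and Krt23 lie near 0. The basal and suprabasal probes lie at or below 0.23 on the horizontal axis. The probe at 0.23, of Krt2, was above background in neither control.

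In the log2 ratios, the same groups read as follows. Hair shaft probes above background had a median of 2.00 in pair 1 and -0.31 in pair 2, and inner root sheath probes 1.67 and -0.36. Of the 20 hair shaft and 9 inner root sheath probes, 0 passed an adjusted p of 0.05 (limma). Among probes above background in all channels, hair shaft means ran from 0.00 (1 probe of Krt85) to 1.17 (Krt33a). The other Krt85 probes had means of 0.83 and 0.87. By the same filter, inner root sheath means ran from 0.54 (Krt25) to 1.23 (Krt26). Of the 10 basal and suprabasal probes 2 fell, those of Krt15 (-1.03) and Krt77 (-0.81), and the highest mean was 0.66 at Krt10, which did not pass. Of the 5 wound-activated probes 2 rose, those of Krt6a (2.23 and 0.53 in the pairs, adjusted p = 0.0421 by limma) and Krt16 (mean 0.76), and the lowest was Krt17 (0.19). Among the simple epithelial keratins 0 of 10 did either. At Krt6a the control of pair 1 was again the lowest pup, with a difference of 1.47 between controls and -0.23 between SOX11-induced pups.

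Genes that act with keratins 8 and 18 were taken as a list of 18 genes, which holds other intermediate filament proteins, the plakins that anchor filaments, and proteins that bind or modify these keratins. Of its 24 probes, 1 passed an adjusted p of 0.05, a Cask probe with a mean log2 ratio of 0.79, while the 3 other Cask probes did not pass, and 0 were called. The lowest mean was -0.48 at Plk1, a mitotic kinase, and did not pass. The median over the 24 probes was 0.11 in pair 1 and 0.05 in pair 2. Vim, the intermediate filament protein of mesenchyme, had log2 ratios of 0.12 and 0.08. Pkp2, a desmosome protein of simple epithelia, had 0.93 and 0.20, with a mean of 0.56 ± 0.517 (SD, n = 2), and did not pass.

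A list of 20 genes for simple epithelium and periderm, the temporary outer layer of embryonic skin, had 26 probes. Of these, 2 passed an adjusted p of 0.05, both higher, and 1 was called, a probe of Prom1 with log2 ratios of 4.03 and 2.88, whose control was above background in pair 2 alone. The other Prom1 probe had 0.79 and 0.20 and was above background in 1 channel. The second probe to pass was Cd24a (1.01 and 1.21), and the lowest mean was -0.65 at Cldn8, which did not pass. Epcam, the adhesion molecule of simple epithelia, had 0.76 and 0.32 and did not pass. The control of pair 2 was higher than that of pair 1 at 16 of the 20 probes of this list above background, with a median difference of 0.31. Claudins seal the junctions between epithelial cells, and Cldn3, named after its values were seen, had the largest control difference of this list at 2.40 with log2 ratios of 1.49 and -0.20. Its pups were ordered as those of Krt18.

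Markers of other cells in the sheet were set beside the members. Merkel cells, the touch receptors of skin, make Krt8, Krt18 and Krt20. Of the 14 Merkel cell genes measured, 6 had a probe above background on both arrays, and the defining factors Atoh1, Sox2 and Isl1 were above background in 0 of 4 channels. Sums of background-subtracted brightness are given before normalization, where Cy5 was brighter than Cy3 throughout: over all probes tested, the SOX11-induced channel was 2.34 times the control channel in pair 1 and 2.6 times in pair 2. The 19 Merkel cell probes summed to 2813 and 2531 in the controls of pairs 1 and 2 and to 5481 and 6222 in the SOX11-induced pups, which is 1.95 and 2.46 times. Chga, with normalized log2 levels of 11.66 and 11.18 in the controls, made up much of these sums. Of the 7 Merkel cell probes above background, 3 were higher in the control of pair 2, with a median control difference of -0.02. These 3 include the probe of Insm1, which was above background in neither control. A probe of Ncam1, an adhesion molecule, differed most between the controls, with log2 levels of 6.77 and 7.78 and log2 ratios of 1.25 and -0.03. The other Ncam1 probes were above background in no channel. On the normalized scale 0 of the 19 probes passed the test. Among those above background in all channels, the means ran from -0.13 (Rab3c) to 0.61 (Ncam1). Sebaceous gland genes, of which all 11 were above background, had a median control difference of -0.12, and 1 of their 13 probes fell (Pparg, -0.63; the highest was Plin2 at 0.50). Dermal fibroblast genes were above background for 6 of 11 genes, and their summed brightness before normalization was 1252 and 1187 in the controls and 1256 and 2842 in the SOX11-induced pups. These are ratios of 1.00 and 2.39, beside 2.34 and 2.6 for all probes, and the normalized log2 ratios of the fibroblast probes above background had medians of -0.40 and 0.35. Of their 12 probes 1 fell (Dcn, -0.79), and the extremes, Postn at -0.83 and Col1a2 at 0.49, did not pass. For skeletal muscle and endothelium, 4 of 12 and 4 of 8 genes were above background, and 1 probe of each fell (Tnni2, -0.80, and Egfl7, -1.01). The highest above background in all channels were Tnnc2 at 0.31 and Kdr at -0.16. Acta1 of muscle and Esam of endothelium counted through the SOX11-induced channels alone. The part of these cells in the members' values was not tested.

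Krt8 and Krt18 are neighbours on chromosome 15, in head-to-head orientation with 23.9 kb between their starts on GRCm38 and 2 long noncoding RNA genes between them. Their promoters are shown because the 2 keratins are partners, from 250 bases before to 50 after the start, as RefSeq gives them. The control of pair 1 was the lowest pup for both, as it was at all 7 member probes above background, by little at Krt20 and Krt23. At Krt8 probe 2 that control was not above background. Krt8 lies on the reverse strand at chr15:102004293-102004592 and Krt18 on the forward strand at chr15:102027966-102028265. Capitals mark matches to ACAAAG or ACAATG, both SOX-type letters, and to TATAAA, the TATA box, on either strand.
Krt8 promoter: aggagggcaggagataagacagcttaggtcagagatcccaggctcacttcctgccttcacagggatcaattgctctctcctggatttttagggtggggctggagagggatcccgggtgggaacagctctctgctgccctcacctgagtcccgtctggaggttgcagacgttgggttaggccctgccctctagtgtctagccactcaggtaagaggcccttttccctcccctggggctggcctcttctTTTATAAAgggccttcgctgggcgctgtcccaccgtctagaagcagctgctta
Krt18 promoter: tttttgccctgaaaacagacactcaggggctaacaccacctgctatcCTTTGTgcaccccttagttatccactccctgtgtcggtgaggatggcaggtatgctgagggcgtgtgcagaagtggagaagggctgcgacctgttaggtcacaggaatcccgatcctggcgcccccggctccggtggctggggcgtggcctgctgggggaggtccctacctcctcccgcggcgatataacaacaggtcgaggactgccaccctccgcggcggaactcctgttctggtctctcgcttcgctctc
The Krt18 window held ACAAAG once, on the opposite strand (CTTTGT). This motif was found in 18.7% of 32851 promoter windows of the same length. ACAATG, found in 12.6%, was in the Krt23 window alone among 7 windows of 6 members. TATAAA, found in 13.6%, was in the windows of Krt8 and Krt20, and in Krt8 the matches on both strands overlap (TTTATAAA). The first bases of the Krt8 matches were at -3 and -1 from the given start, so the matches run across that start. No windows were matched for Krt4 and Krt19. A match is a description of letters, not a site.

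The probes whose log2 ratios on the 2 arrays came closest to those of Krt18, by distance in the plane of both ratios, were sought among 16353 other gene names. They were Gm10272 (1.62 and -0.10, distance 0.026), Cadm4 (1.64 and -0.19), Krtap10-4 (1.64 and -0.04), Gm11567 (1.64 and -0.21) and Gprc5a (1.52 and -0.12). Krtap10-4 is named as a keratin-associated protein. This is a description over 2 arrays.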

How the data were processed

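Scanner output came, per the file headers, from Agilent Feature Extraction 10.7.3.1, with probe positions on mm9. Their intensity values, as deposited, are spot and local background brightness without normalization, and their processed signals are background-subtracted and dye-normalized. The log2 ratios that the authors deposited in the series table were rebuilt from median spot brightness to within 0.000462. Mean brightness was corrected in limma 3.58.1 (R 4.3.3) by normexp with an offset of 16, as in the methods of the study, and normalized by loess with weight 0 for control spots. Spots with outlier flags were left out (194 and 186). Levels per channel were scaled between arrays by Aquantile. Ratios of 55676 probes were fitted with an intercept, eBayes (prior of 8.34 degrees of freedom, SD 0.223) and Benjamini-Hochberg adjustment over all probes. The script was tested on simulated data. The methods describe a colour swap and a ComBat step for dye. The labels give 1 dye orientation, and the rebuilt table needed no such step. Members, lists and tests were chosen with earlier results of these data known. All members were named with every probe, and other lists by counts, their extremes and called probes. Some further genes of these lists, such as Vim, Pkp2, Epcam and Cldn3, were named outside that rule. Each pup is 1 animal, so the p-values rest on 2 pairs. They do not measure the spread of a probe between the pairs alone, since limma moderates it by the variance shared across probes. Alternatives were the offset, spot summary, centring, processed signals, series table, filters, trend and leaving out an array.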

Additional observations from a re-analysis of the deposited data

How the results depend on the processing

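Leaving out 1 array leaves 1 ratio with no test. The number of probes past log2 1.5 was then between 273 and 553, against 252 called, and among the keratin members between 0 and 1 (Krt18 in pair 1 alone), against 0 called. Centring each array on its median, without loess, raised the called probes to 756 (746 higher and 10 lower, against 204 and 48) and the member probes with an adjusted p under 0.05 from 0 to 5, and processed signals gave 0 called probes in all (limma), with 9764 at an unadjusted p under 0.05. Offset 50, median spot brightness, the series table, the filter on dim probes, kept outlier spots and an intensity trend gave between 177 and 253 called probes and 0 members past either threshold. The mean of Krt8 probe 2 reversed with median spot brightness (-0.0197) and in the series table (-0.018), and no other member mean changed sign with both arrays in the fit. In pair 2 alone the values of Krt18 (-0.12), Krt13 probe 2 (-0.39) and Krt8 probe 2 (-0.27) were negative, against positive means. Levels were also compared without scaling between arrays and with processed signals, chosen after seeing the data, and the control difference of Krt20 turned to -0.08 with processed signals. A paired analysis is the only one made, since each ratio is taken within a littermate pair. Probes near background limit what can be read for Krt4, Krt19, Krt13 probe 1 and Krt8 probe 2.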
